A study of Mus musculus with 10 samples.

Results

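The connexin genes on the array were taken as every probe set whose platform annotation names a single gene with a symbol that starts with Gja, Gjb or Gjc followed by a digit. The rule found 17 of 22690 probe sets, for 11 of 12393 named genes, and used no measured value. Gja1 had 6 probe sets, Gjb1 had 2, and Gja3, Gja4, Gja5, Gja10, Gjb2, Gjb5, Gjb6, Gjc1 and Gjc3 had 1 each.

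The signals came from whole testes of mice aged 10 days. SCARKO mice lack the androgen response in their Sertoli cells only, and the controls were AMH-Cre mice, which carry a Cre transgene driven by a Sertoli cell promoter. Each array held RNA pooled from 1 testis of each of 3 littermates, with 5 control and 5 SCARKO pools made as littermate pairs, so the replicates are pools and not single mice. The titles and descriptions of the samples disagree on genotype for pairs 1 to 4 and agree for pair 5, and the titles are followed here for each direction.

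Connexins are the membrane proteins of gap junctions. Several connexins assemble into a hemichannel, and hemichannels of neighbouring cells dock to form a pore that passes ions and small metabolites. In the seminiferous tubule, gap junctions couple Sertoli cells to each other and to germ cells, next to the tight and adherens junctions of the blood-testis barrier. Gja1, which encodes connexin Cx43, is the best known of them in this epithelium, and its loss from Sertoli cells is known to block spermatogenesis.

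Every array had a trimmed mean signal of 100.03 and a median between 36.4 and 37.6. Rhox5, the standard transcript of androgen action in Sertoli cells, lay between 86.6 and 241.4 in control pools and between 7.9 and 12.7 in SCARKO pools (log2 fold change -4.17, SE 0.24, adjusted p = 6.1e-06), lower in 5 of 5 pairs. All 7 Sertoli cell markers looked for (Sox9, Amh, Wt1, Gata4, Dmrt1, Clu and Fshr) passed the filter on low signal, and so did 6 of 6 germ cell markers. Of the markers of epididymis, fat and blood, 5 were on the array and none passed it.

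No connexin passed the test between SCARKO and control testes. Of the 17 probe sets, 9 passed the filter on low signal, which required a mean log2 signal of at least 4.27 over the 10 arrays (a signal of 19.3), and these belonged to Gja1, Gja4, Gjb2 and Gjc1. The limma fit with the littermate pair as a block called 0 of these 9 at an adjusted p under 0.05. In this main fit 0 reached an unadjusted p under 0.05, a count that some alternatives changed. Of all 13576 tested probe sets 5.19% were called and 20.9% reached that unadjusted threshold, so 0 of 9 calls is close to the background. The control and SCARKO ranges overlapped for each of the 9, against 4.52% of all tested probe sets whose ranges did not overlap. The 6 estimates below 0 and 3 above 0 had a median log2 fold change of -0.04 and a median size of 0.07, beside 0.01 and 0.08 over all tested probe sets. Gja1 supplied 6 of the 9 probe sets, which share target RNA, so these counts and medians mostly describe that gene. On the brightest probe set of each of the 4 genes, the estimates were -0.07 (Gja1), -0.28 (Gja4), 0.12 (Gjb2) and -0.01 (Gjc1).

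Gja1 had high signals, and its means lay close together in the 2 groups. On its brightest probe set, 1437992_x_at, control pools 1 to 5 gave signals of 1064.9, 1043.7, 1138.1, 1159.4 and 1112.0. SCARKO pools 1 to 5 gave 1099.1, 1111.7, 994.0, 975.2 and 1063.0. SCARKO pools 3 and 4 were the lowest of the 10, while in pairs 1 and 2 the SCARKO pool was the higher one. The means were 1104 ± 48.6 and 1049 ± 61.5 (SD, n = 5), and the log2 fold change was -0.07 (SE 0.05, 95% interval -0.19 to 0.04, adjusted p = 0.44).

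**Figure D1:**
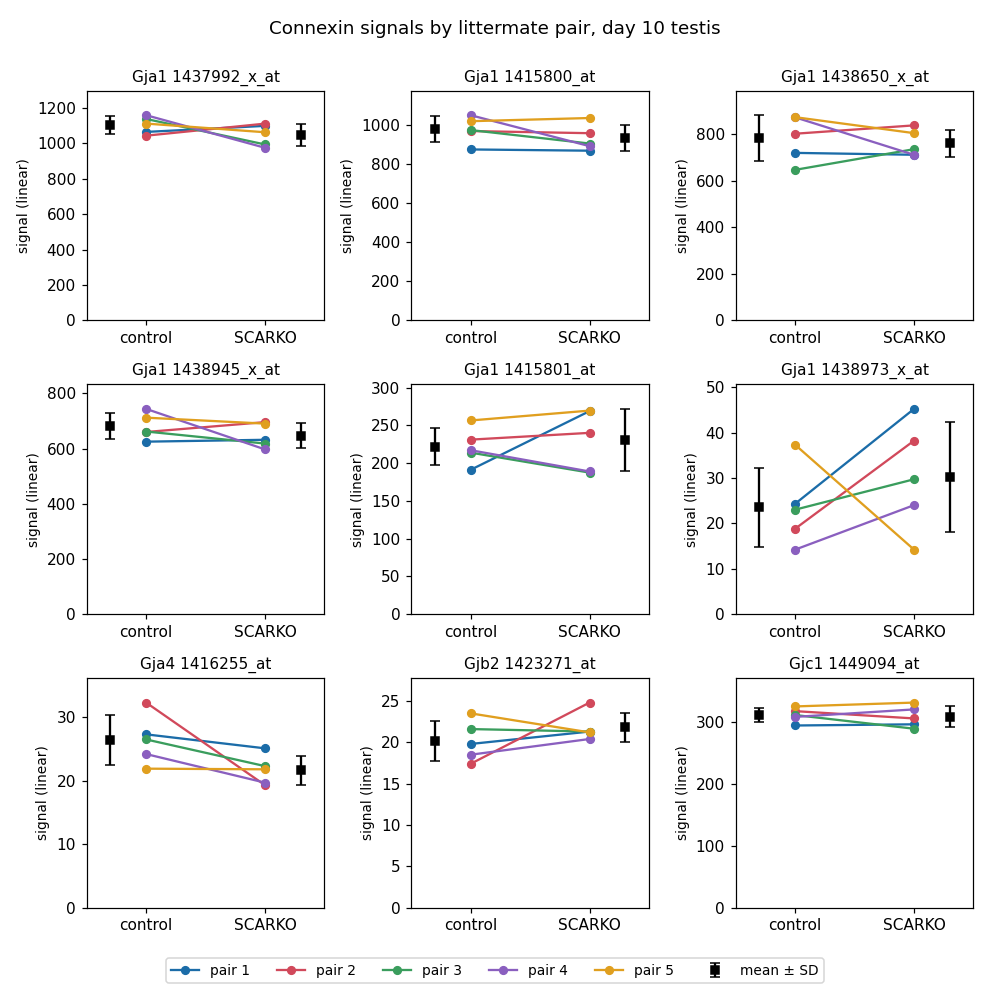
Signal on a linear scale (y axis, from 0) in control and SCARKO pools for the 9 connexin probe sets that passed the filter, 1 panel each. Coloured points and lines are the 5 littermate pairs and black squares with bars are the mean ± SD of 5 pools. Lines run nearly level for Gjc1 (294.5 to 325.3 in controls, 289.3 to 331.5 in SCARKO) and cross for the dim Gja1 probe set 1438973_x_at.

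The 4 other bright Gja1 probe sets also had overlapping ranges and estimates near 0. Probe set 1415800_at ranged from 876.8 to 1052.5 in controls and from 870.4 to 1038.0 in SCARKO pools (log2 fold change -0.07, SE 0.04, adjusted p = 0.40). Probe set 1438650_x_at ranged from 647.4 to 874.0 and from 712.0 to 838.7 (-0.04, SE 0.06, adjusted p = 0.78). For 1438945_x_at the ranges were 625.1 to 743.9 and 597.0 to 696.0 (-0.07, SE 0.05, adjusted p = 0.48). Only 1415801_at had an estimate above 0 among these 5, with 191.2 to 256.6 in controls and 187.5 to 269.7 in SCARKO (0.05, SE 0.09, adjusted p = 0.82).

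Across the 5 bright probe sets the 95% intervals together spanned a change from -12.4% to 18.0%. Their coefficients of variation within a group lay between 4.41% and 17.7%, the highest in the SCARKO pools of 1415801_at. They share target RNA and are not replicates of the comparison. Over the 10 arrays their log2 signals correlated with each other at a Pearson r between 0.30 and 0.89 (median 0.53 over 10 pairings), a description of probe sets that share libraries and a target.

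The direction of the Gja1 ratio varied between littermate pairs. In pair 4 all 5 bright Gja1 probe sets were lower in SCARKO, with log2 ratios between -0.32 and -0.20. In pair 3, 4 of the 5 were lower (median -0.11), and in pair 2, 4 of the 5 were higher (median 0.06). In pairs 1 and 5 the medians were 0.02 and -0.04, with 3 and 2 of the 5 higher. Without pair 4 the estimate for 1437992_x_at was -0.03 and that for 1438650_x_at turned to 0.03.

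**Figure D2:**
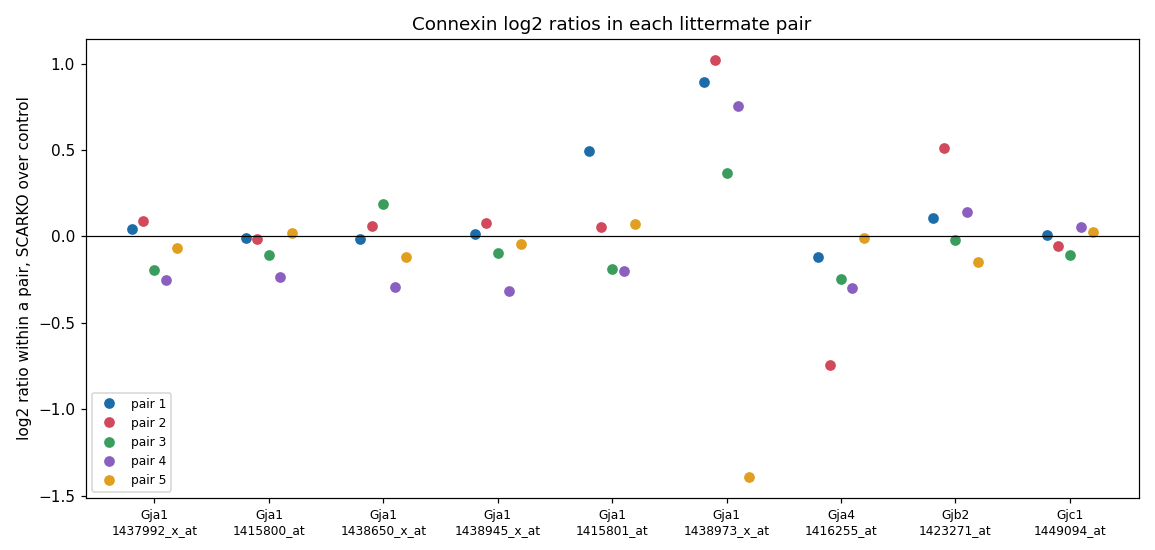
Log2 ratio of SCARKO over control signal within each littermate pair (y axis) for the 9 tested connexin probe sets (x axis), 1 coloured point per pair. Gja4 lies below 0 in all 5 pairs, pair 4 lies lowest of the pairs for each of the 5 bright Gja1 probe sets, and pair 5 of the dim Gja1 probe set 1438973_x_at lies at -1.39, far below its other pairs.

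The sixth Gja1 probe set, 1438973_x_at, was dim and went its own way. Control pools 1 to 5 gave 24.3, 18.8, 23.0, 14.2 and 37.3, and SCARKO pools gave 45.2, 38.2, 29.7, 24.0 and 14.2. SCARKO was the higher one in pairs 1 to 4, with log2 ratios of 0.90, 1.02, 0.37 and 0.76, and the lower one in pair 5, with -1.39. The log2 fold change was 0.33 (SE 0.28, 95% interval -0.29 to 0.95, adjusted p = 0.55). Without pair 5 it was 0.76 and was called by limma (adjusted p = 0.023), where 2.54% of all tested probe sets were called. Its log2 signal correlated with those of the bright Gja1 probe sets at r between -0.54 and 0.16 over the 10 arrays. The suffix x_at marks a probe set with probes that can also match other sequences. It is carried by this probe set and by 3 of the 5 bright ones, 1437992_x_at among them, while 1415800_at and 1415801_at do not carry it.

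Pair 1 of 1415801_at stood apart from the other pairs of that probe set, with a signal of 191.2 in the control and 269.0 in the SCARKO pool (log2 ratio 0.49). Without pair 1 its estimate turned from 0.05 to -0.07.

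Gjc1, which encodes connexin Cx45 of smooth muscle, heart and vessels, was the steadiest member. Control pools 1 to 5 gave signals of 294.5, 317.7, 311.4, 308.4 and 325.3, and SCARKO pools gave 296.4, 305.9, 289.3, 320.5 and 331.5. SCARKO was higher in 3 pairs and lower in 2, and the highest and lowest of the 10 signals were both SCARKO pools. The means were 311 ± 11.5 and 309 ± 17.3 (SD, n = 5), with coefficients of variation of 3.69% and 5.60%. The log2 fold change was -0.01 (SE 0.05, adjusted p = 0.90 by limma), and its 95% interval ran from a change of -7.65% to one of 6.23%.

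Gja4, which encodes connexin Cx37 of endothelium and of the ovarian follicle, was the 1 member that lay on the same side in all pairs. Control pools 1 to 5 gave 27.3, 32.3, 26.5, 24.2 and 21.9, and SCARKO pools gave 25.1, 19.3, 22.3, 19.7 and 21.8. The SCARKO pool was below its littermate control in 5 of 5 pairs, with log2 ratios from -0.0066 in pair 5 to -0.74 in pair 2. Over all tested probe sets, 8.55% were lower in all 5 pairs and 18.5% went the same way in all 5. The 1 of 9 connexin probe sets, most of them from Gja1, could therefore not be set apart from the background. The means of 26.4 ± 3.90 and 21.6 ± 2.33 (SD, n = 5) gave a log2 fold change of -0.28 (SE 0.13, 95% interval -0.57 to 0.00, unadjusted p = 0.053, adjusted p = 0.25 by limma). An exact two-sided sign-flip test over the 5 pairs gave p = 0.0625, the smallest that 5 pairs allow. Without pair 2 the log2 fold change was -0.17 (adjusted p = 0.50), and its signals, from 19.3 to 32.3, lay close to the filter.

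In these whole testes, fewer cells of a type and less RNA per cell cannot be told apart. For the marker counts at an unadjusted p under 0.05 below, the share over all tested probe sets was 20.9%. Endothelial markers were set beside Gja4. All 7 (Pecam1, Cdh5, Tek, Kdr, Emcn, Eng and Sox18) were measured, none was at 0, and limma called 0 and 1 reached an unadjusted p under 0.05. Their median log2 fold change was -0.01, and their summed signal ran from 235.8 to 297.4 in control pools and from 256.0 to 305.3 in SCARKO pools. Cdh5, the endothelial cadherin, had -0.19 (adjusted p = 0.41) and the transcription factor Sox18 had 0.19 (adjusted p = 0.18). Myoid cell markers had a median of -0.12 over 6 genes, of which limma called 0 and 2 reached an unadjusted p under 0.05, with sums from 2855 to 3245 in controls and from 2534 to 2950 in SCARKO. Acta2, with means of 1532 and 1483, gave the largest part of these sums. Of the myoid markers, Mylk had -0.17 (adjusted p = 0.091), and its other tested probe sets had -0.29 and -0.22. Tpm2 had -0.13 (adjusted p = 0.19) on its brightest probe set and 0.00 on the other tested one. Without pair 2 the brightest Tpm2 probe set was called (-0.19, adjusted p = 0.047), as were 5.48% of all tested probe sets. The part of these cells in the Gja4 and Gjc1 values was not tested.

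Gjb2, which encodes connexin Cx26 of the inner ear and of epithelia, was barely above the filter, with a mean log2 signal of 4.38. Control pools 1 to 5 gave 19.8, 17.4, 21.6, 18.5 and 23.5, and SCARKO pools gave 21.3, 24.8, 21.3, 20.4 and 21.2. SCARKO was higher in pairs 1, 2 and 4 and lower in pairs 3 and 5, and pair 2 held both the lowest and the highest signal. The log2 fold change was 0.12 (SE 0.13, 95% interval -0.17 to 0.41, adjusted p = 0.66 by limma), and without pair 2 it was 0.02.

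The other 8 probe sets, for 7 genes, did not pass the filter and had no signal above 6.8 on any array. They include Gjb1 of liver and Schwann cells, Gja5 of vessels and the heart's conduction system, the lens connexin Gja3, the retinal Gja10, Gjb5, Gjb6 of the inner ear and glia, and Gjc3 of myelinating glia. Of their 80 values, 46 lay under 1, where signals have no order. Gja5 lay under 1 on all 10 arrays, the 2 probe sets of Gjb1 on 8 and 9, and Gjb5 on 8. Gja3 ranged from 0.7 to 6.8 in controls and from 1.4 to 6.2 in SCARKO pools. Gjc3 ranged from 0.4 to 5.8 and from 0.4 to 3.9. Gjb6 was above 1 on all 10 arrays, at 1.7 to 4.2 in controls and 2.0 to 3.7 in SCARKO pools. When limma was fitted with no filter it called 0 of these 8 and 0 reached an unadjusted p under 0.05, with adjusted p of 0.56 or more. Gja3, Gjb2 and Gjb6 follow one another directly among the protein-coding genes of the mouse assembly GRCm38.p6, and of these neighbours Gjb2 alone passed the filter.

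Of the other channel-forming relatives, 3 of the 7 listed were on the array and 1 passed. Panx1, a pannexin that forms channels without docking to a neighbour, had means of 65.8 and 68.9 (log2 fold change 0.07, SE 0.08, adjusted p = 0.68). The neuronal connexin gene Gjd2 reached at most 4.6 and Gjd4 at most 5.2 on any array, so neither passed the filter.

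Connexins depend on scaffolds, kinases and trafficking proteins. Of 26 such genes listed, 17 were tested and limma called 0 while 4 reached an unadjusted p under 0.05, with a median log2 fold change of 0.00, beside 0.02 over all 7973 genes. Of all genes 5.69% were called, 3.52% lower and 2.17% higher. An unadjusted p under 0.05 was reached by 20.9% of all tested probe sets. Tjp1, which encodes the scaffold ZO-1 that binds the tail of Cx43, had means of 435.5 and 435.2 (0.00, adjusted p = 0.99). The ubiquitin ligase gene Nedd4, which acts in the turnover of Cx43, had 0.12 (SE 0.04, adjusted p = 0.067) and was higher in 5 of 5 pairs. The protein kinase C gene Prkcd had 0.18 (SE 0.07, adjusted p = 0.18), also higher in 5 of 5. Among all tested probe sets, 18.5% went the same way in all 5 pairs.

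Genes of tight and adherens junctions were measured in the same whole testes. Of 26 listed, 16 were tested, and limma called 3 lower and 0 higher, beside 3.52% lower and 2.17% higher over all genes. Their median log2 fold change was 0.00, with 8 estimates below 0 and 8 above. Some listed genes were on the array but below the filter, among them the desmosomal Dsp, Dsg2 and Dsc2. With no filter these had estimates above 0 and were not called, as given under other observations. Cldn11, the tight junction claudin of Sertoli cells, fell by 0.68 on the log2 scale (SE 0.07, adjusted p = 0.00029), from between 449.5 and 599.2 in controls to between 262.5 and 365.8 in SCARKO. Jam3, a junctional adhesion molecule, fell by 0.54 (SE 0.07) and Cdh2, which encodes N-cadherin, fell by 0.50 (SE 0.09, adjusted p = 0.0079). The other tested probe set of Cdh2 had -0.30. The control and SCARKO ranges of Cldn11 did not overlap, nor did those of 4.52% of all tested probe sets. With no filter on low signal none of these 3 calls held (adjusted p = 0.054 for Cldn11, 0.056 for Jam3 and 0.13 for Cdh2), and that of Cdh2 also ended with no intensity trend (0.054).

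The difference between these genes and the connexins was set out within pairs, a comparison chosen after their values were seen. Cldn11, Jam3 and Cdh2 entered it because limma called them lower on these same arrays, so the differences restate that choice. Cldn11 fell below every bright Gja1 probe set in 5 of 5 pairs, and so did Jam3 and Cdh2. The log2 ratio of Cldn11 was lower than that of Gja1 (1437992_x_at) by a mean difference of -0.61 ± 0.24 (SD, n = 5 pairs). For Jam3 the difference from Gja1 was -0.47 ± 0.16 and for Cdh2 it was -0.43 ± 0.20 (SD, n = 5 pairs). Against Gjc1 the differences were -0.67 for Cldn11, -0.53 for Jam3 and -0.49 for Cdh2, the last below Gjc1 in 4 of 5 pairs. The choice of the genes fixed the direction of these differences, so they are given as a description with no p.

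**Figure D3:**
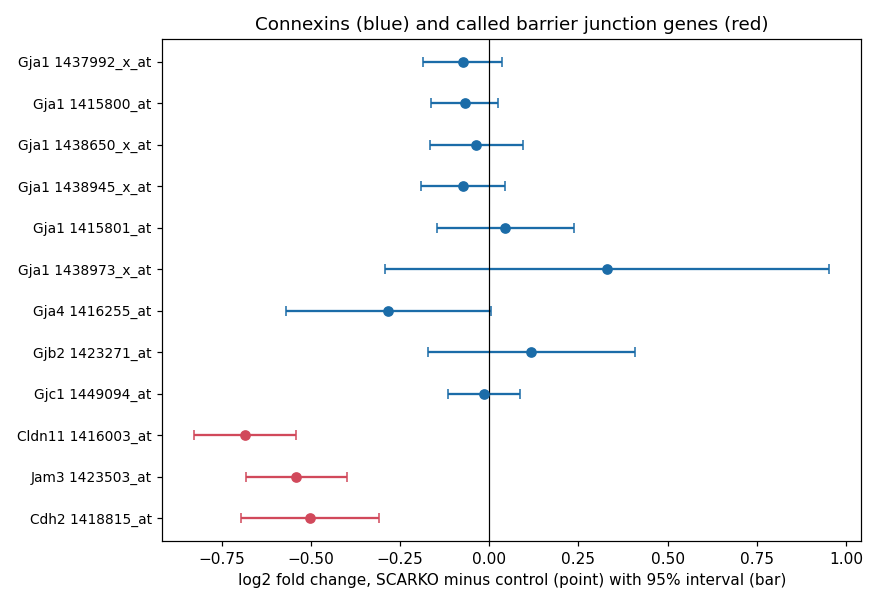
Log2 fold change, SCARKO minus control (x axis), with its 95% interval from limma, for the 9 tested connexin probe sets (blue) and for Cldn11, Jam3 and Cdh2 (red). In this main fit the connexin intervals all include 0, narrowly for Gja4 (-0.57 to 0.00). The red intervals lie below 0 by choice, since these are the 3 of 16 tested tight and adherens junction genes that limma called.

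Sertoli and germ cells are the cells of the tubule that gap junctions couple. Of the 7 Sertoli cell markers 1 rose, Fshr, the receptor of follicle-stimulating hormone (0.42, SE 0.09, adjusted p = 0.026), while 4 reached an unadjusted p under 0.05. Over all tested probe sets 20.9% reached that unadjusted threshold. Amh, the hormone gene of immature Sertoli cells, had -0.71 (SE 0.20, adjusted p = 0.065) and Wt1 had -0.09 (adjusted p = 0.32). Each was lower in 5 of 5 pairs, as were 8.55% of all tested probe sets. Gata4 had 0.26 (adjusted p = 0.081) and Dmrt1 0.10 (adjusted p = 0.21), each higher in 4 of 5 pairs. Amh, Wt1, Gata4 and Dmrt1 were named after their values were seen. Of the 7 Sertoli cell markers, 3 had estimates below 0 and 4 above. The markers' summed signal ran from 3982 to 4115 in control pools and from 4011 to 4156 in SCARKO pools. Clu, with means of 2580 and 2498, gave the largest part of this sum, so dimmer markers hardly move it. The Fshr call ended without pair 1, 2 or 4 (adjusted p = 0.068 to 0.089), with no filter (0.15) and with no intensity trend (0.067). Limma called 0 of 6 germ cell markers, and 1 reached an unadjusted p under 0.05. Sycp3, of the meiotic chromosome axis, had -0.21 (adjusted p = 0.12), and Kit, of differentiating spermatogonia, had 0.13 (adjusted p = 0.24). Of 4 Leydig cell markers limma called 0 and 0 reached an unadjusted p under 0.05; Star had -0.16 and Hsd3b1 0.05. Of 5 macrophage markers limma called 0 and 1 reached an unadjusted p under 0.05; C1qa had 0.17 and Lyz2 0.12.

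The genes whose log2 signal over the 10 arrays was most like that of each member were found among 7972 others. For Gja1 they were Abt1 (Pearson r = 0.91, Spearman rho = 0.82), Vps37b (0.89 and 0.83) and Cul4b (0.88 and 0.87). Without the 2 arrays farthest from the Gja1 median, SCARKO pools 3 and 4, r was 0.79, 0.60 and 0.83. For Gjc1 they were Rabl3 (r = 0.87), Maml1 (0.86) and Hnrnpm (0.84), and for Gjb2 Ddx19b (0.95), 1110038F14Rik (0.88) and Adcy3 (0.86). None of these 9 genes was called, and the correlations are the highest of many over 10 arrays, given as a description.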

How the data were processed

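Whole-testis RNA of 10 littermate pools (5 control, 5 SCARKO; groups and pair numbers from the titles) was measured on Affymetrix arrays. The deposited values are signal intensities on a linear scale. Per the submitters' processing notes 8 of the 10 arrays were processed with MAS5, with no version named, and no tool is named for pair 5. Intensities hold no read depth, and the number of arrays limits the precision.

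Signals were floored at 1 and log2-transformed. After array controls were removed, the 40% of probe sets that were dimmest on average were left out. Limma 3.58.1 in R 4.3.3 was fitted with the pair as a block (eBayes with an intensity trend, two-sided, Benjamini-Hochberg over all kept probe sets, called at adjusted p under 0.05); the fit was tested on simulated data. In gene lists each gene stands by its brightest kept probe set. Symbols came from the platform annotation and were checked by gene identifier against GRCm38.p6, where 29 identifiers were not found. Detection calls and the targeted gene were not analysed here.

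The pairs rest on the labels' protocol of littermate pools, and same-numbered pools deviated together from their group means (r = 0.27, 0.19, 0.19, 0.11 and 0.39). Named were every connexin, Rhox5, the called members of each list or else the 2 with the smallest p, and the 3 genes most like Gja1, Gjb2 and Gjc1. Tjp1, Gjd2, Gjd4, Amh, Wt1, Gata4, Dmrt1 and the desmosomal genes were named after their values were seen. The members and lists were chosen with earlier results of these data known. Alternatives were no filter, a 60% filter, 16 added before log2, quantile normalization, no block, no intensity trend, each pair left out, and groups from the descriptions.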

Additional observations from a re-analysis of the deposited data

Results flagged for a closer look

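The Gjb2 signal of SCARKO pool 2 was 24.8, apart from the other SCARKO pools, of which the nearest was at 21.3. Its gap made up 0.80 of the range of the group, above the critical value of 0.71 for 5 samples. It was the 1 such value among 18 groups of pools examined for the 9 tested connexin probe sets, and chance alone gives about 1 in 20 groups.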

How the results depend on the processing

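No tested connexin was called under any alternative except 1438973_x_at of Gja1 without pair 5, so the number of called connexin probe sets ran from 0 to 1 over the left-out pairs. Over the other settings on the titles' groups the adjusted p of the members lay between 0.20 and 0.98. Without 1 pair at a time, log2 fold changes of the Gja1 probe sets ran from -0.092 to -0.027 (1415800_at), -0.066 to 0.11 (1415801_at), -0.12 to -0.031 (1437992_x_at), -0.091 to 0.029 (1438650_x_at), -0.11 to -0.013 (1438945_x_at) and 0.16 to 0.76 (1438973_x_at). Those of Gja4 ran from -0.35 to -0.17, Gjb2 from 0.019 to 0.18 and Gjc1 from -0.031 to 0.0094. Signs turned without pair 4 for 1438650_x_at, without pair 1 for 1415801_at, without pair 3 for Gjc1 and, for Star, without pair 5 (0.080).

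Groups from the descriptions put Rhox5 higher in SCARKO in pairs 1 to 4 and lower in pair 5. With these groups limma called 0 probe sets in all. The estimates were then 0.078 (1415800_at), 0.049 (1437992_x_at), 0.056 (1438945_x_at), -0.017 (1415801_at), -0.89 (1438973_x_at), 0.28 (Gja4), -0.18 (Gjb2) and 0.025 (Gjc1), each with its sign turned, and -0.011 for 1438650_x_at, whose sign held, at adjusted p of 0.90 or more.

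The count over all probe sets, 704, was 38 with no filter, 404 with no replicate block, 321 with no intensity trend and 304 to 744 without 1 pair. Leaving out the littermate pairing as a block changed no connexin call, with adjusted p from 0.31 to 0.93. The calls of Cldn11, Jam3, Cdh2 and Fshr all ended with no filter, and those of Cdh2 and Fshr also with no intensity trend. The causes were not tested. The 60% filter left 6 of the 9 probe sets, those of Gja1 without 1438973_x_at and that of Gjc1.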

Other observations

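The list of tight and adherens junction genes held 5 desmosomal genes, named after their values were seen. Of these, Dsp, Dsg2 and Dsc2 lay below the filter on low signal and were not tested in the main comparison. The plaque genes Jup (log2 fold change 0.11, adjusted p = 0.69) and Pkp2 (0.16, adjusted p = 0.25) were tested and did not pass. Dsc2, a desmosomal cadherin, ranged from 7.0 to 16.6 in control pools and from 18.5 to 33.5 in SCARKO pools, higher in 5 of 5 pairs and with ranges that did not overlap. Among the probe sets that passed the filter, 4.52% had ranges that did not overlap and 18.5% went the same way in all 5 pairs. In the limma fit with no filter its log2 fold change was 1.39 (SE 0.23, adjusted p = 0.089). Dsg2, its partner cadherin, ranged from 5.6 to 16.7 and from 14.3 to 25.7 (1.25, SE 0.38, adjusted p = 0.23), and the plaque gene Dsp ranged from 10.4 to 17.9 and from 17.5 to 34.1 (0.66, SE 0.18, adjusted p = 0.20), each higher in 4 of 5 pairs. None of the 3 passed the threshold in that fit.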
